A study of Mus musculus with 60 samples.

Results

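The amino acid stress response genes described here are 10 mouse genes: the transcription regulators Atf4, Atf5, Ddit3 and Nupr1, the synthesis enzymes Asns, Phgdh, Psat1 and Psph, the feedback inhibitor Trib3 and the glutathione-degrading enzyme Chac1. They were chosen by name as genes of the ATF4 stress response and of serine synthesis, and the set was selected on the deposited FPKM of Asns and Psat1, which were higher in cultured cells than in hepatocytes and higher in some livers after resection than in normal liver. The comparisons of Asns and Psat1 with uncultured hepatocytes, with normal liver, and between culture days or times after resection are therefore given as a description, with no test. All 10 genes were among the 19460 gene symbols of the series, 10 had values both for the cells and for the livers, and 9 in the table for day 7, in which no row for Ddit3 was used here.

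When a cell runs short of amino acids, uncharged tRNA activates the kinase GCN2, which phosphorylates the translation factor eIF2α, and the transcription factor ATF4 is then made from messenger RNA that is already present. ATF4 switches on genes that make or import amino acids and charge tRNA, while DDIT3 (CHOP) and TRIB3 act in the same response and TRIB3 restrains ATF4. In the adult liver, which receives amino acids from the gut, the enzymes of serine synthesis are scarce, and the level of Atf4 messenger RNA reports on ATF4 activity only in part, because ATF4 is controlled mainly in translation.

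The data were RNA sequencing of mouse cells and livers, all labelled wild-type (WT) and C57BL/6, with 3 samples in each of 20 groups. Hepatocytes of mice 8 to 10 weeks old were cultured in a hepatocyte culture medium (HCM) with EGF and HGF and with 30 ng/ml of interleukin 6 (IL6), which turned them into proliferating hepatic progenitor-like cells called IL6-iHPCs. The cell table held uncultured Hepatocytes, IL6-iHPCs at day 3 and day 14 of primary culture (D3 and D14, passage 0, written P0), and passaged IL6-iHPCs, namely mouse-1 at P10 and again at P35, clone-1 at P20, and mouse-2 at P10. It also held the cells matured from each of those passaged lines, called IL6-iMHs, in a maturation medium with 20 ng/ml of oncostatin M. Dexamethasone was in both media, at a higher concentration in the maturation medium. The study lists no EGF, HGF or IL6 in the maturation medium, so IL6-iMHs and IL6-iHPCs differed in these factors too. Clone-1 grew from a single cell and is 1 clone, and the study describes single-cell clones grown from hepatocytes marked with tdTomato by Albumin-Cre, which the labels of these samples do not name. Mouse-1 and mouse-2 are 1 mouse each, so a mean over the 4 lines is a mean over these lines only. The liver table held Normal liver and liver at 6 h, 24 h, 3 days, 7 days and 14 days after 2/3 partial hepatectomy (PHX). The day 7 table held Primary hepatocytes, hepatocytes cultured for 7 days in HCM with IL6 (IL6-iHPCs-D7) and without it (HCM-Hepa-D7). At day 7, IL6-iHPCs-D7 and HCM-Hepa-D7 shared EGF, HGF and the culture itself, and IL6 was the difference between them.

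Some libraries stood apart or went against their labels. In PHX-D3 replicate 2, 574 of 11114 genes were at least 2-fold above both other PHX-D3 samples and 636 at least 2-fold below both, against at most 149 above and 120 below in any other liver sample. Of the 10 genes, 7 were among those above (Atf4, Ddit3, Nupr1, Phgdh, Psat1, Trib3 and Chac1). Its summed macrophage markers were 674 FPKM against 265 and 184, its stellate cell markers 211 against 76.9 and 90.4, and its hepatocyte markers 35228 against 47562 and 69221. Results at PHX-D3 are given with and without it. The summed Y-linked genes were 33.9 to 38.7 FPKM in IL6-iHPCs-clone-1 but 0 in every IL6-iMH sample, clone-1 included, so IL6-iMHs-clone-1 did not match the cells they are labelled as made from. They were 5.46 to 7.21 FPKM in Hepatocytes, 70.5 to 81.4 at D3, 53.4 to 62.3 at D14 and at most 0.0157 in the other passaged IL6-iHPCs, so the groups compared also differed in this sum. Counts of the 10 genes over the mean of the lines are given also without clone-1. Most single values over that mean, the counts of other lists and the correlations are given only with it. Hepatocyte markers, checked as a list, summed to 77486 to 83644 FPKM in Hepatocytes, 646 to 759 at D3 and 60961 to 81502 in the IL6-iMHs.

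Of the 10 genes, 3 carried the letters TGATGNAA, the core of the C/EBP-ATF response element through which ATF4 acts, within the 250 bases before their RefSeq start, on either strand. They are Nupr1, which differed most between cultures with and without IL6, Asns, on which the set was chosen, and Chac1, which separated times and lines, and the match is shown in each. Each is a window of 30 bases, 5′ to 3′, with the match in capitals, from RefSeq promoters on GRCm38.p6. The Nupr1 window lies on the plus strand at chr7:126625562-126625591, with the match starting 110 bases before the start of the gene, which is on the minus strand. The Asns window lies on the minus strand at chr6:7693214-7693243, the strand of the gene, with the match 23 bases before the start. The Chac1 window lies on the minus strand at chr2:119351038-119351067, with the match 193 bases before the start of the gene, which is on the plus strand.
Nupr1: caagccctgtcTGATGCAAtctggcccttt
Asns: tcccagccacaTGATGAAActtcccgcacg
Chac1: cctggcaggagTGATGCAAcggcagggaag
The Nupr1 and Asns windows overlap the untranslated part of an annotated GENCODE transcript of the same gene, and the Chac1 window lies in no annotated exon. The same letters were in 3.45% of all 32851 RefSeq promoters of this length and in 11 of 71 other genes of the pathway (15.5%), Atf3, Fgf21, Slc7a11, Aars, Gars and Herpud1 among them. They were not in the windows of Atf4, Atf5, Ddit3, Phgdh, Psat1, Psph or Trib3, and no motif search was run beyond these windows.

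Values are in FPKM, which is per gene length and depth, so levels can be set beside each other between genes. Differences are on the log2(FPKM + 1) scale, as the estimate ± its standard error from limma, with Benjamini-Hochberg adjustment of the p-values across every gene tested in the table. A gene was called changed at an adjusted p under 0.05 and at least 2-fold on that scale. The study gives the samples of a cell group as technical repeats, and nothing says that livers of a group came from separate animals, so p-values measure only the spread between these samples. In bulk samples, fewer cells of a type and less RNA per cell cannot be told apart.

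The first comparison asked how the genes stood in hepatocytes turned into IL6-iHPCs. Phgdh, Psat1 and Asns were at 1.93 FPKM or less in every Hepatocytes sample and at 29.3 FPKM or more in every D3 sample. Phgdh, the first enzyme of serine synthesis, was at 0.315, 0.103 and 0.171 FPKM in Hepatocytes and at 48.8, 47.0 and 48.7 FPKM at D3. All D3 samples lay far above all Hepatocytes, with a log2 difference of 5.36. It is given as a description, because Phgdh passed the filter for testing, 1 FPKM in at least 3 samples, only through cultured cells. Psat1, the next enzyme of the same pathway, was at 0.336, 0.260 and 0.524 FPKM in Hepatocytes and at 29.3, 29.9 and 30.6 FPKM at D3, a log2 difference of 4.50 as a description. Psph, which completes the pathway, was already at 5.77, 4.88 and 4.32 FPKM in Hepatocytes and reached 13.4, 14.1 and 14.4 FPKM at D3. This was a rise of 1.33 ± 0.08 (limma adjusted p = 2.07e-16), close to the 1.14 by which the median gene was higher, and under quantile normalization it turned to -0.02. Asns, which makes asparagine from aspartate, was at 1.93, 1.56 and 1.69 FPKM in Hepatocytes and at 61.4, 67.2 and 64.0 FPKM at D3, a log2 difference of 4.58 as a description.

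Among the regulators, Nupr1, a small stress-induced chromatin protein, was listed at 0.0235, 0 and 0 FPKM in Hepatocytes and at 13.9, 15.3 and 16.0 FPKM at D3. With 1 read recovered over the 3 Hepatocytes samples and 1746 over the 3 D3 samples, the ratio was 1906, with an exact 95% interval of 342 to 75329 that covers counting error only. On the log2 scale the difference was 3.99, again as a description, since Nupr1 passed the filter in the same way. Trib3, the inhibitor that feeds back on ATF4, was at 1.82, 1.67 and 1.54 FPKM in Hepatocytes and at 40.7, 47.4 and 39.0 FPKM at D3, a rise of 4.01 ± 0.07 (limma adjusted p = 5.59e-29). Ddit3, which encodes CHOP, a regulator tied to cell death under prolonged stress, was at 3.87, 3.62 and 3.42 FPKM in Hepatocytes and at 27.8, 33.04 and 27.7 FPKM at D3, a rise of 2.71 ± 0.09 (limma adjusted p = 2.41e-22). For these 3 genes the groups did not overlap.

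Atf4 itself was abundant before culture. It was at 76.8, 74.1 and 74.4 FPKM in Hepatocytes and at 146, 182 and 139 FPKM at D3, above all Hepatocytes, and it rose by 1.03 ± 0.07 (limma adjusted p = 6.77e-14). Set against the median gene, its difference was -0.11, and without D3 replicate 2 it was 0.91 and under 2-fold. Atf5, a factor related to ATF4 and abundant in liver, was at 108, 109 and 82.3 FPKM in Hepatocytes and at 106, 94.4 and 104 FPKM at D3. The groups overlapped, with a log2 difference of 0.03 ± 0.12 (limma adjusted p = 0.78). Chac1, which breaks down glutathione, was at 2.01, 1.88 and 1.79 FPKM in Hepatocytes and at 4.78, 4.17 and 3.61 FPKM at D3, a difference of 0.84 ± 0.12 that did not reach 2-fold, and under quantile normalization it was -0.73.

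Counts against Hepatocytes leave out Asns and Psat1, on which the set was chosen, and Nupr1 and Phgdh, in which a difference was built into the filter. At D3, 4 of the 6 genes counted rose (Atf4, Ddit3, Psph and Trib3) and 0 fell, where 66.0% of all 12328 genes tested were called changed, so the share is near that background. Quantile normalization moved the median of all genes at D3 to 0.11 and the split of calls from 6641 higher and 1494 lower to 3179 and 2749. Under it Trib3 (2.90), Ddit3 (1.52) and Atf4 (1.45) still rose.

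**Figure D1:**
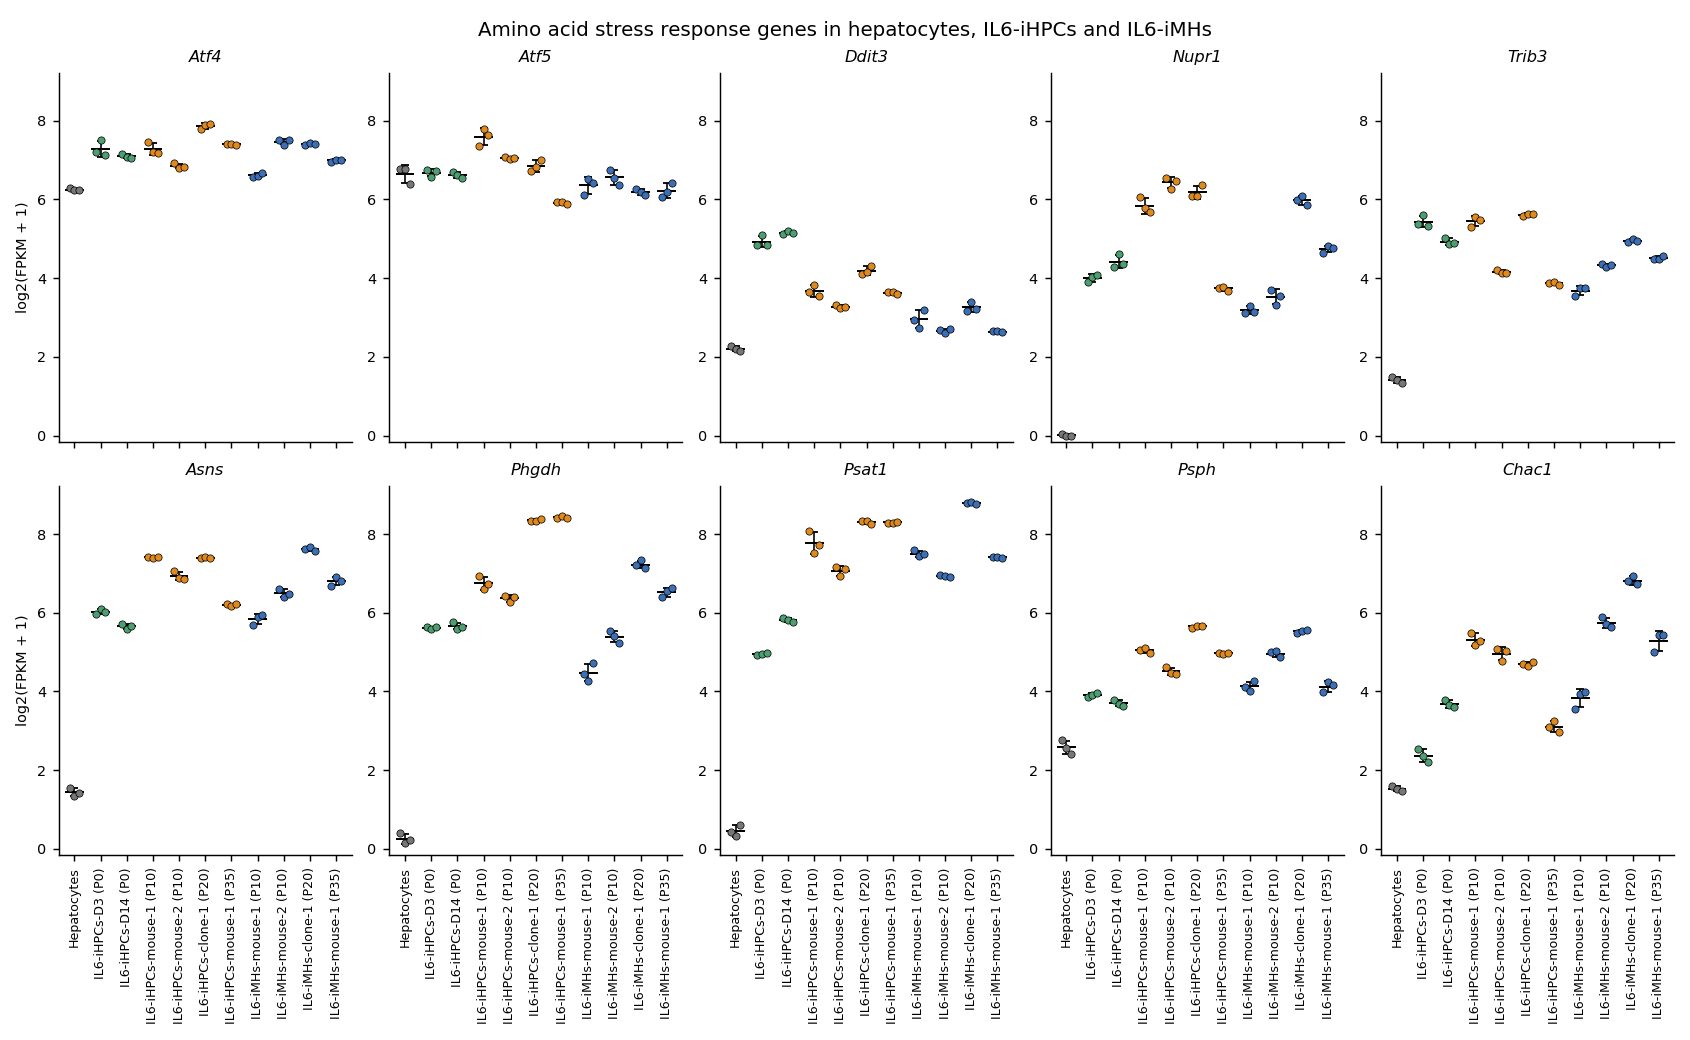
Level of each of the 10 genes as log2(FPKM + 1) in the 11 groups of the cell table, with 1 point per sample, a line for the mean of 3 samples and bars for the SD. Asns, Phgdh, Psat1, Nupr1 and Trib3 are low in the 3 Hepatocytes samples and higher in every cultured sample, while Atf4 and Atf5 are abundant in all groups.

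By D14, Chac1 had joined the genes called and Atf4 had left them. Of the same 6 genes, 4 rose against Hepatocytes (Ddit3, Psph, Trib3 and Chac1) and 0 fell, where 62.9% of all genes were called. Atf4, at 142, 135 and 133 FPKM, differed by 0.86 ± 0.07 (limma adjusted p = 5.3e-12) and stayed under 2-fold. Psph rose by 1.12 ± 0.08 (limma adjusted p = 1.49e-14), and its direction flipped to -0.08 under quantile normalization, under which Chac1, at 2.15 ± 0.12, came to 0.81. D3 and D14 were compared with the same Hepatocytes samples, so these counts are not independent.

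Among the 8 genes counted, Chac1 alone was past 2-fold between D3 and D14. It was at 12.8, 11.5 and 11.1 FPKM at D14, above all D3 samples, and rose by 1.31 ± 0.12 between the times (limma adjusted p = 6.42e-11). Of the 8 genes counted, 1 rose and 0 fell from D3 to D14, where 10.2% of all genes were called. With no fold threshold, 6 of the 8 were called, 3 higher and 3 lower. Psat1 was at 57.4, 55.6 and 53.7 FPKM at D14, 0.87 above D3 as a description, and Asns at 51.7, 47.4 and 49.3 FPKM, 0.37 below. Trib3 was at 31.5, 28.4 and 28.7 FPKM at D14, a log2 difference of -0.50 ± 0.07 from D3 that was under 2-fold. Stellate cell markers summed to 0.64 to 1.08 FPKM at D3 and 24.9 to 26.0 at D14, and biliary markers to 355 to 529 and 4060 to 4483 FPKM, and their part in the rise of Chac1 was not tested.

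In every sample of the passaged IL6-iHPCs, the 4 synthesis enzymes were above all samples of D3 and D14. Against Hepatocytes, 5 of the 6 genes counted rose over the mean of the 4 lines and 0 fell, where 59.4% of all genes were called. Atf5, with a log2 difference of 0.21 ± 0.09, was the gene that did not pass. Without clone-1, 4 of 6 rose, where 58.5% of all genes were called, since Atf4 went from a rise of 1.101 ± 0.06 to 0.93. Trib3 rose by 3.36 ± 0.06, Chac1 by 2.99 ± 0.09, Psph by 2.47 ± 0.06 and Ddit3 by 1.48 ± 0.07. Ddit3 was 0.27 under quantile normalization and no longer called. As a description, Psat1 stood 7.40, Phgdh 7.22, Asns 5.54 and Nupr1 5.54 above Hepatocytes.

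The lines differed among themselves. Phgdh was at 322, 320.0 and 335 FPKM in clone-1 and at 339.9, 351 and 338 FPKM in mouse-1 at P35, and these groups did not overlap with mouse-1 at P10 (121, 95.5 and 105 FPKM) or mouse-2 at P10 (85.0, 76.3 and 83.3 FPKM). Nupr1 was at 12.6, 12.8 and 11.7 FPKM in mouse-1 at P35, below all D3 samples, while mouse-1 at P10 was at 65.9, 53.6 and 50.3 FPKM and mouse-2 at 92.9, 76.5 and 88.1 FPKM. Asns was at 168, 167 and 171 FPKM in mouse-1 at P10 and at 73.4, 71.6 and 73.0 FPKM in the same line at P35. Psat1 moved the other way, with 267, 183 and 209.7 FPKM at P10 and 312, 313 and 315 FPKM at P35.

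Between P10 and P35, the only passages of 1 line that can be compared directly, 5 of 10 genes fell and 1 rose, where 33.7% of all genes were called. Chac1 fell by 2.21 ± 0.12 (limma adjusted p = 1.3e-16), Nupr1 fell by 2.10 ± 0.10, Atf5 fell by 1.68 ± 0.12, Trib3 fell by 1.57 ± 0.07 and Asns fell by 1.20 ± 0.07. Phgdh rose by 1.68 ± 0.09 (limma adjusted p = 3.87e-16), while the median gene was 0.36 higher. Psat1 differed by 0.53 ± 0.08, Atf4 by 0.11 ± 0.07, Psph by -0.08 ± 0.08 and Ddit3 by -0.04 ± 0.09, all under 2-fold. Each passage is a single line at 1 time, and passage and culture history cannot be told apart. Asns and Psat1, on whose rise in culture the set was chosen, are in this count and in the counts and tests on maturation below. For them these results are not independent of that choice.

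The levels of Asns can be put in order over the groups. From low to high, its means were 1.73 FPKM in Hepatocytes, 49.5 at D14, 56.6 in IL6-iMHs of mouse-1 (P10), 64.2 at D3 and 72.7 in IL6-iHPCs of mouse-1 (P35). Above them came IL6-iMHs of mouse-2 at 89.1 and of mouse-1 (P35) at 111 FPKM, then IL6-iHPCs of mouse-2 at 121, of clone-1 at 167 and of mouse-1 (P10) at 169 FPKM, and last IL6-iMHs of clone-1 at 197 FPKM. Neighbours whose samples overlapped were D14 and IL6-iMHs of mouse-1 (P10), IL6-iMHs of mouse-1 (P35) and IL6-iHPCs of mouse-2, and IL6-iHPCs of clone-1 and of mouse-1 (P10). Over the 11 group means, the genes whose log2 levels were most like those of Asns were Pqlc3 (Pearson r = 0.967), BC022687 (0.963), Mthfd2 (0.959), Ifngr1 (0.955) and Aldh18a1 (0.949). Among the other 9 genes, r with Asns was 0.932 for Psat1, 0.920 for Nupr1, 0.895 for Phgdh, 0.865 for Psph and 0.862 for Trib3, and it was 0.310 for Ddit3 and 0.110 for Atf5. These values describe 11 points that share 1 low Hepatocytes group.

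Maturation of the IL6-iHPCs into IL6-iMHs was the next comparison, which asked whether the genes returned toward their level in hepatocytes. Against Hepatocytes, 3 of the 6 genes counted were still higher in IL6-iMHs over the mean of the 4 lines and 0 lower, where 32.6% of all genes were called. They were Chac1 at 3.89 ± 0.09, Trib3 at 2.95 ± 0.06 and Psph at 2.11 ± 0.06. All 3 were at 1.34 or more under quantile normalization as well, and 3 of 6 were called without clone-1, where 29.2% of all genes were called. Ddit3, at 0.67 ± 0.07 and -0.02 under quantile normalization, Atf4 at 0.87 ± 0.06 and Atf5 at -0.31 ± 0.09 did not reach 2-fold. As a description, Psat1 stood 7.20, Phgdh 5.65, Asns 5.25 and Nupr1 4.35 above Hepatocytes, while the median gene was 0.46 higher. Hepatocyte markers summed to 80312 to 81502 FPKM in IL6-iMHs of mouse-2, within the 77486 to 83644 FPKM of Hepatocytes. The other IL6-iMHs lay below that range. They were at 69391 to 77002 FPKM in mouse-1 at P10, 64612 to 68693 in clone-1 and 60961 to 73143 in mouse-1 at P35. Biliary markers summed to 3.84 to 3.94 FPKM in Hepatocytes. In the IL6-iMHs they summed to 1155 to 1408 FPKM in mouse-2, 1092 to 1272 in mouse-1 at P10, 1042 to 1145 in clone-1 and 200 to 224 in mouse-1 at P35. The part of these markers in the results was not tested.

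Matured cells of each line were then set against their own IL6-iHPCs. Over the mean of the 4 lines, 2 of 10 genes fell and 0 rose, where 28.1% of all genes were called, and without clone-1 the same count was 2, where 33.2% were called. Phgdh fell by 1.57 ± 0.05 (limma adjusted p = 2.9e-23) and Nupr1 fell by 1.19 ± 0.05 (limma adjusted p = 3.84e-19), while the median gene was 0.40 lower. Quantile normalization moved the split over all genes from 823 higher and 2636 lower to 1185 and 1096, and under it Nupr1 was at -0.96, short of 2-fold. Single lines differed from this mean, as follows.

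Phgdh was lower after maturation in all 4 lines. In mouse-1 at P10 it went from 121, 95.5 and 105 FPKM to 20.7, 18.4 and 25.3 FPKM, and in mouse-1 at P35 from 339.9, 351 and 338 FPKM to 83.1, 92.3 and 97.4 FPKM. It fell by 2.27 ± 0.09 at P10 (limma adjusted p = 6.77e-19) and fell by 1.91 ± 0.09 at P35 (limma adjusted p = 1.12e-17), with no overlap between groups. In clone-1 it fell by 1.13 ± 0.09, with -0.98 under quantile normalization, short of 2-fold. In mouse-2 it differed by -0.97 ± 0.09, also short of 2-fold, but it was -1.25 under quantile normalization. The mouse-2 difference was -1.02 without IL6-iHPC replicate 2 and -1.04 without IL6-iMH replicate 1. Psat1, the next step in the same pathway, did not follow. It was at 191, 172 and 178 FPKM in IL6-iMHs of mouse-1 (P10), which overlapped with the IL6-iHPCs, and at 440.0, 449 and 434 FPKM in IL6-iMHs of clone-1, its highest level in any group. Its differences ranged from -0.89 ± 0.08 in mouse-1 at P35 to 0.48 ± 0.08 in clone-1, and none reached 2-fold, although the former was -1.01 under quantile normalization.

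In mouse-1 at P10, 6 of 10 genes fell with maturation and 0 rose, where 25.0% of all genes were called, with a median of -1.36 for the 10 genes and -0.17 for all genes. Nupr1 went from 65.9, 53.6 and 50.3 FPKM to 7.67, 8.82 and 7.84 FPKM and fell by 2.65 ± 0.10 (limma adjusted p = 2.31e-19). Chac1 went from 44.0, 35.3 and 37.8 FPKM to 10.8, 14.2 and 14.8 FPKM and fell by 1.49 ± 0.12 (limma adjusted p = 1.81e-12). Asns went from 168, 167 and 171 FPKM to 50.9, 58.4 and 60.4 FPKM and fell by 1.56 ± 0.07. For each of these genes all 3 matured samples lay below all 3 IL6-iHPC samples. Trib3 fell by 1.76 ± 0.07, and Atf5, at 163, 219 and 197 FPKM before and 68.8, 91.4 and 85.1 FPKM after, fell by 1.23 ± 0.12. The differences of Psph (-0.91), Ddit3 (-0.72), Atf4 (-0.68) and Psat1 (-0.27) were under 2-fold.

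In the same line at P35, Chac1 and Nupr1 rose instead. Chac1 went from 7.49, 8.57 and 6.88 FPKM to 30.9, 42.1 and 42.1 FPKM, a rise of 2.18 ± 0.12 (limma adjusted p = 1.2e-16). Nupr1 went from 12.6, 12.8 and 11.7 FPKM to 24.2, 27.1 and 26.3 FPKM, a rise of 1.01 ± 0.10 (limma adjusted p = 3.49e-10) that was 0.97 to 0.99, under 2-fold, without IL6-iHPC replicate 3 or IL6-iMH replicate 2 or 3. Both genes had no overlap between groups. Asns was at 102, 118 and 112 FPKM after maturation against 73.4, 71.6 and 73.0 FPKM before, a difference of 0.60 ± 0.07 that was under 2-fold. In all, 2 of 10 genes rose and 1, Phgdh, fell, where 45.3% of all genes were called.

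The difference between P35 and P10 was tested itself. Maturation at P35 was higher relative to maturation at P10 for 5 of 10 genes and lower for 0, where 33.7% of all genes were called and the median gene was 0.36 lower. Chac1 differed by 3.67 ± 0.17 (limma adjusted p = 6.75e-18), Nupr1 by 3.66 ± 0.15 (limma adjusted p = 3.9e-19), Trib3 by 2.40 ± 0.10 (limma adjusted p = 7.73e-19), Asns by 2.16 ± 0.10 (limma adjusted p = 5.36e-18) and Atf5 by 1.54 ± 0.16 (limma adjusted p = 1.21e-09). Phgdh, at 0.37 ± 0.13, Psat1, at -0.62 ± 0.12, Psph, at 0.07 ± 0.11, and Ddit3, at -0.27 ± 0.13, did not reach 2-fold. For Chac1, Nupr1, Asns and Trib3, the IL6-iHPCs at P35 were lower than those at P10, and the matured cells at P35 were higher than those at P10, in every sample. The P35 IL6-iHPCs also held 4 of 8 hepatocyte markers lower than those at P10. Neutrophil markers summed to 86.4 to 92.3 FPKM in the IL6-iHPCs and 1.12 to 2.09 in the IL6-iMHs at P35. In other IL6-iHPCs they summed to 0.114 to 0.138 FPKM in mouse-1 at P10 and 27.9 to 36.5 in clone-1. Macrophage markers summed to 32.7 to 40.9 FPKM in the IL6-iMHs at P35, against 5.29 to 6.43 in the IL6-iHPCs of that passage and 3.48 to 4.57 in the IL6-iMHs at P10. Biliary markers in the IL6-iHPCs were 7409 to 8438 FPKM at P10 and 2699 to 2794 at P35, and the part of these markers in the results at P35 was not tested.

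**Figure D2:**
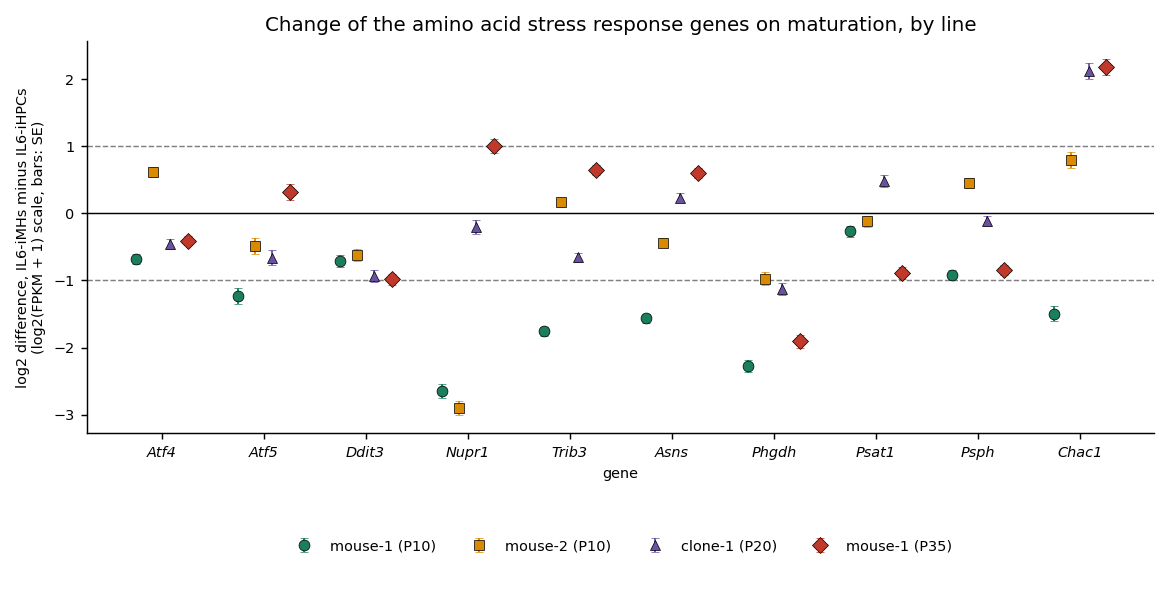
Difference of IL6-iMHs minus IL6-iHPCs on the log2(FPKM + 1) scale (vertical axis) for each of the 10 genes (horizontal axis), with 1 symbol per line, bars for the limma standard error, and dashed lines at 2-fold. Phgdh lies below 0 in all 4 lines, whereas Chac1 lies at -1.49 in mouse-1 at P10 and above 0 in the other lines.

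In mouse-2 at P10, 1 of 10 genes fell and 0 rose, where 39.9% of all genes were called. This was Nupr1, at 92.9, 76.5 and 88.1 FPKM before and 12.1, 9.04 and 10.7 FPKM after maturation and fell by 2.91 ± 0.10 (limma adjusted p = 1.39e-20). In clone-1, 1 of 10 rose and 1 fell, where 23.6% of all genes were called. Chac1 rose by 2.12 ± 0.12 (limma adjusted p = 5.38e-16), from 25.0, 24.0 and 25.8 FPKM to 111, 121 and 104 FPKM, and the fall was that of Phgdh. Nupr1 in clone-1 was at 67.0, 66.7 and 81.8 FPKM before and 62.3, 67.3 and 56.9 FPKM after, overlapping groups with a difference of -0.20 ± 0.10 (limma adjusted p = 0.0746). The Y-linked mismatch given above applies to this pair.

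The wider pathway was described with lists of other genes, whose counts at D3 stand beside the 66.0% of all genes called. At D3 against Hepatocytes, 9 of 11 amino acid transporters rose and 0 fell (median 2.63), among them Slc38a2 at 3.10, Slc3a2 at 3.08 and Slc7a5 at 2.73. Slc7a11, the cystine carrier, was listed at 0 in all 3 Hepatocytes samples and was at 26.3 to 29.1 FPKM at D3. It passed the filter only through cultured cells. Such genes stayed in the lists counted against Hepatocytes, at D3 and in the passaged IL6-iHPCs. Their difference from Hepatocytes was built into the filter, in the lists and in the share over all genes. Of the cytosolic aminoacyl-tRNA synthetases, 12 of 20 rose and 0 fell (median 1.63), with Gars at 3.92 ± 0.07 and Aars at 0.56, and 9 of 11 eIF2α kinases, phosphatases and ATF4 partners rose and 0 fell (median 1.89), with the amino acid sensor Eif2ak4 (GCN2) at 2.26 and Eif2ak3 (PERK) at 2.61. Other ATF4 targets went both ways, with 8 of 13 higher and 2 lower (median 1.34). Sesn2 rose by 3.50 and Ddit4 by 2.52, while Cth, which makes cysteine from cystathionine, fell by 4.27. The mitochondrial one-carbon enzyme Mthfd2, counted below with the genes that lead from serine to glycine, rose by 3.21 ± 0.09.

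Lists of other stress arms were counted as well at D3. The ER folding arm of the unfolded protein response had 3 of 15 genes higher and 3 lower (median -0.26), with the chaperone Hspa5 at 0.22. The 6 mitochondrial stress genes had a median of 0.07, with the chaperonin Hspd1 at 0.34. Among enzymes that break down serine and glycine, 0 of 8 rose and 5 fell (median -1.75), with serine dehydratase, Sds, at -6.57, and of 11 genes that lead from serine to glycine and one-carbon units, 5 rose and 4 fell (median -0.01). In the passaged IL6-iHPCs, 17 of 20 synthetases rose and 0 fell (median 1.55), 8 of 11 transporters rose and 1 fell (median 2.21), and the ER list had 4 of 15 higher and 1 lower (median 0.35). On maturation, 7 of 20 synthetases fell and 0 rose over the 4 lines (median -0.88), and 3 of 11 transporters fell and 0 rose (median -0.72), beside 4 of 13 other ATF4 targets that rose and 0 that fell (median 0.41). Of all genes, 59.4% were called in the passaged IL6-iHPCs and 28.1% on maturation, and the shift of the median gene given above applies to all these lists.

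At day 7, IL6 could be set against the same culture without it. Nupr1 was the gene of the 9 that passed, and the other 8 differed by less than 2-fold. It was at 28.6, 30.8 and 27.2 FPKM in IL6-iHPCs-D7 and at 6.90, 7.59 and 8.56 FPKM in HCM-Hepa-D7, with no overlap. It rose by 1.79 ± 0.10 (limma adjusted p = 2.96e-08), so that 1 of 9 genes rose and 0 fell, where 5.43% of the 276 genes tested were called. The day 7 values used here covered 480 genes. Shares, adjusted p-values and quantile normalization at day 7 rest on the genes tested among these, not on all genes of the series. Trib3 was nearest among the rest, at 38.3, 43.9 and 39.7 FPKM with IL6 and 22.7, 21.2 and 20.5 FPKM without, a difference of 0.89 ± 0.07 (limma adjusted p = 5.91e-07). Atf5 was at 144, 158 and 139 FPKM with IL6 and at 92.0, 96.6 and 90.5 FPKM without, a difference of 0.65 ± 0.06.

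Among the synthesis enzymes, Asns, Phgdh and Psph overlapped between the cultures with and without IL6, and Psat1 did not. Asns was at 89.0, 103 and 89.7 FPKM with IL6 and at 89.5, 80.6 and 83.3 FPKM without, overlapping groups with a difference of 0.15 ± 0.08 (limma adjusted p = 0.146). Phgdh was at 122, 167 and 127 FPKM with IL6 and at 188, 155 and 155 FPKM without, again overlapping, with a difference of -0.27 ± 0.11 (limma adjusted p = 0.0551). Psat1 was at 94.2, 114 and 95.6 FPKM with IL6 and at 75.0, 69.5 and 69.6 FPKM without, a difference of 0.49 ± 0.08 that was under 2-fold. Psph differed by 0.05 ± 0.09. Chac1 differed by 0.33 ± 0.09 and Atf4 by 0.38 ± 0.06, both under 2-fold. For Chac1 and Atf4, as for Trib3, Atf5 and Psat1, all samples with IL6 lay above all samples without it. A p that misses the threshold does not show that the levels were equal.

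Both day 7 cultures were also compared with Primary hepatocytes, without Nupr1, Phgdh, Psat1 and Chac1, which passed the filter only through cultured cells, and without Asns. Of the 4 genes counted, 3 rose and 0 fell with IL6, where 53.3% of the 276 genes tested were called. Without IL6, 3 rose and 0 fell, where 54.0% were called. The gene that did not pass was Atf5 in each. Phgdh, at 0.0428, 0.0432 and 0.0156 FPKM in Primary hepatocytes, stood 7.06 higher with IL6 and 7.33 higher without, as a description. Nupr1, at 0, 0.258 and 0.186 FPKM in Primary hepatocytes, stood 4.71 higher with IL6 and 2.92 higher without. Atf4, at 45.1, 44.3 and 45.9 FPKM in Primary hepatocytes, was at 172, 202 and 181 FPKM with IL6 and at 149, 137 and 141 FPKM without, rises of 2.01 ± 0.06 and 1.63 ± 0.06, the second of which was 0.65 under quantile normalization. Asns stood 5.42 and 5.27 above Primary hepatocytes with and without IL6, and Psat1 6.43 and 5.94, as a description. The cultures share the Primary hepatocytes samples.

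**Figure D3:**
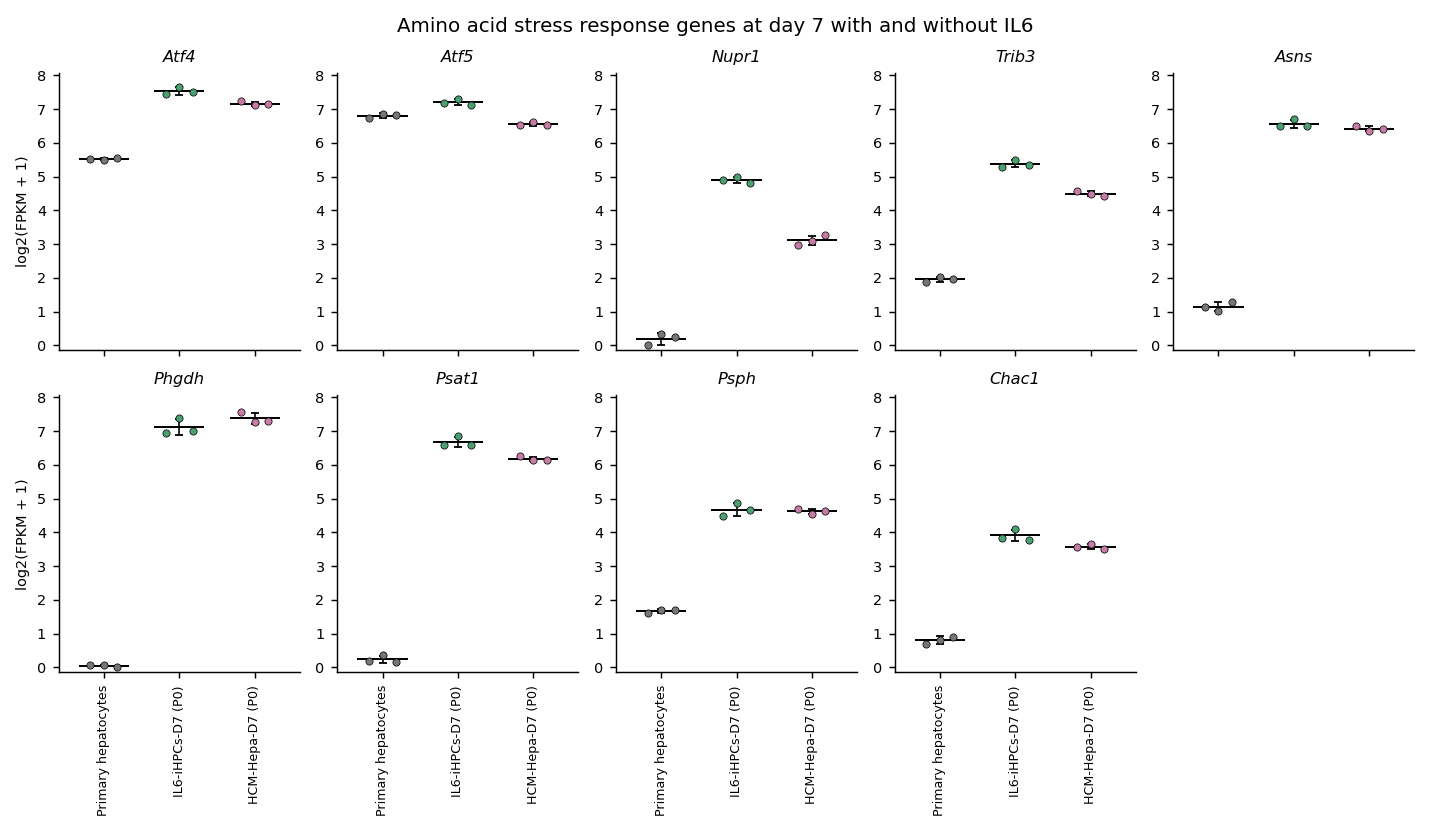
Level of 9 of the genes as log2(FPKM + 1) in Primary hepatocytes and in hepatocytes cultured for 7 days with IL6 (IL6-iHPCs-D7) or without it (HCM-Hepa-D7), with 1 point per sample, a line for the mean of 3 samples and bars for the SD. Nupr1 and Trib3 lie higher with IL6 than without, while Asns, Phgdh and Psph overlap between the cultures.

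The livers after PHX were in a table of their own that was not normalized together with the cells. Counts against Normal liver leave out Phgdh, which passed the filter only through PHX-D7 and PHX-D3 replicate 2, beside Asns and Psat1. Asns was at 1.499, 3.39 and 2.33 FPKM in Normal liver, 5.01, 4.36 and 5.57 FPKM at 6 h, and 7.02, 10.6 and 3.31 FPKM at 24 h. It was at 9.54, 23.6 and 11.4 FPKM on day 3, with all samples above Normal liver, at 1.34, 0.988 and 1.38 FPKM on day 7 and at 2.49, 11.1 and 3.15 FPKM on day 14. Its differences from Normal liver, as a description, were 0.84 at 6 h, 1.15 at 24 h, 2.15 on day 3, -0.58 on day 7 and 0.75 on day 14. Psat1 was at 0.340, 0.594 and 0.425 FPKM in Normal liver and at 1.00, 24.2 and 1.42 FPKM on day 3, where 1 sample, replicate 2, was far above the rest. Its differences were 0.60, 0.90, 1.78, 0.84 and 0.10 at the same times. Without replicate 2, the day 3 difference of Psat1 was 0.60 from Normal liver and -0.29 from 24 h. That of Asns from Normal liver was then 1.79, also as a description. Over the 6 group means, the genes most like Asns were Stk35 (Pearson r = 0.972), Itih2 (0.952), Sun2 (0.949), Irgq (0.942) and Ctr9 (0.936), and Psat1 had 0.633. These values describe 6 points and are the highest among 11114 genes. They include replicate 2 of day 3 and of day 14, in each of which Asns was the highest of its group.

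At 6 h after PHX, the tested genes that passed were Chac1 and Atf5, in opposite directions. Chac1 was at 1.27, 2.72 and 1.83 FPKM in Normal liver and at 11.1, 6.01 and 17.8 FPKM at 6 h, a rise of 2.02 ± 0.57 (limma adjusted p = 0.00828). By 24 h it was at 0.171, 3.61 and 1.34 FPKM, overlapping with Normal liver, and from 6 h it fell by 2.33 ± 0.57 (limma adjusted p = 0.00587). Atf5 was at 160.4, 125 and 172 FPKM in Normal liver and at 34.3, 53.7 and 72.4 FPKM at 6 h and fell by 1.55 ± 0.31 (limma adjusted p = 0.00082). It was at 163, 258 and 204 FPKM by 24 h, a rise of 1.98 ± 0.31 from 6 h (limma adjusted p = 0.000356). The 6 h samples lay outside the range of Normal liver for both genes. In all, 1 of 7 genes rose and 1 fell at 6 h, where 16.3% of all 11114 genes were called. From 6 h to 24 h, 1 of 8 rose and 1 fell, where 6.72% were called. Trib3 was at 5.95, 9.02 and 3.71 FPKM in Normal liver and at 1.85, 1.91 and 0.830 FPKM at 6 h, a difference of -1.48 ± 0.73 that did not pass (limma adjusted p = 0.102). Neutrophil markers summed to 43.6 to 44.8 FPKM at 6 h against 1.71 to 7.26 in Normal liver, and 8 of 10 macrophage markers were lower, and their part in these results was not tested.

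Other genes of the pathway at 6 h included Cebpb, a partner of ATF4, which rose by 1.91, and Ddit4 by 2.46. The amino acid carrier Slc38a2 rose by 1.69 and the ER chaperone Hspa5 by 1.32. Atf3 stood 2.41 higher as a description. It did not reach 1 FPKM in every Normal liver sample, so it passed the filter only with livers after PHX. Such genes stayed in the lists counted against Normal liver and in the share over all genes, here and on day 7. Counted by list, beside the 16.3% of all genes called, 3 of 11 eIF2α kinases, phosphatases and partners rose and 0 fell, 3 of 10 other ATF4 targets rose and 1 fell, and 4 of 15 ER folding genes rose and 0 fell. Of 20 synthetases 0 rose and 1 fell, and of 7 transporters 1 rose and 0 fell. Chac1 thus rose in livers in which the median gene was 0.28 lower.

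At 24 h and on day 3 and day 14, 0 of 7 genes passed by limma against Normal liver, where 7.90%, 5.82% and 2.98% of all genes were called, and 0 passed by limma voom on recovered reads. At an unadjusted p under 0.05, 1 gene was found at 24 h, Trib3 at -1.65 (limma adjusted p = 0.0943), 0 on day 3, and 1 on day 14, Atf4 at 0.69 ± 0.22 (limma adjusted p = 0.0447, under 2-fold). Atf4 was at 101, 119 and 92.1 FPKM on day 14, above 61.2, 64.8 and 64.7 FPKM in Normal liver, with no overlap. Between 24 h and day 3, 0 of 8 genes passed by limma, where 3.72% of all genes were called, and 0 by limma voom. There 1 had an unadjusted p under 0.05, Atf5 at -0.86 (limma adjusted p = 0.0567).

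Day 3 depended on replicate 2. Trib3 was at 1.53, 33.2 and 1.13 FPKM, Nupr1 at 0.746, 20.2 and 0.182 FPKM, and Ddit3 at 5.13, 31.9 and 5.42 FPKM, with replicate 2 the high sample each time. Without it, 2 genes fell against Normal liver, where 4.16% of all genes were called: Trib3 fell by 1.57 (limma adjusted p = 0.0055), and Nupr1, at 0.28 with all samples, fell by 1.02 (limma adjusted p = 0.0078). Against 24 h, Atf5 fell by 1.22 and Nupr1 fell by 1.37 without it, where 5.72% of all genes were called. Asns was at 9.54 and 11.4 FPKM in the other samples, above all samples of Normal liver.

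On day 7, 0 of 7 genes passed by limma, where 8.84% of all genes were called, and 0 by limma voom, and 1 had an unadjusted p under 0.05, Chac1 at 1.34 ± 0.57 (limma adjusted p = 0.0931). Phgdh was at 0.132, 0.0862 and 0.0739 FPKM in Normal liver and at 0.788, 1.67 and 1.47 FPKM on day 7, above every sample of Normal liver, a log2 difference of 1.05 as a description, which was 0.76 under quantile normalization. In the same samples, 10 of 10 macrophage markers were higher, with sums of 1211 to 1755 FPKM against 231 to 352 in Normal liver. Lymphocyte markers summed to 16.3 to 18.8 FPKM, against 1.32 to 2.68 in Normal liver. The part of these markers in the level of Phgdh was not tested. Among other genes of the pathway, Ddit4 rose by 4.13 and Gdf15 by 3.67 on day 7. Of the other ATF4 targets, 4 of 10 rose and 1 fell, beside the 8.84% of all genes called. Atf3, which passed the filter only with livers after PHX, stood 5.27 higher as a description.

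**Figure D4:**
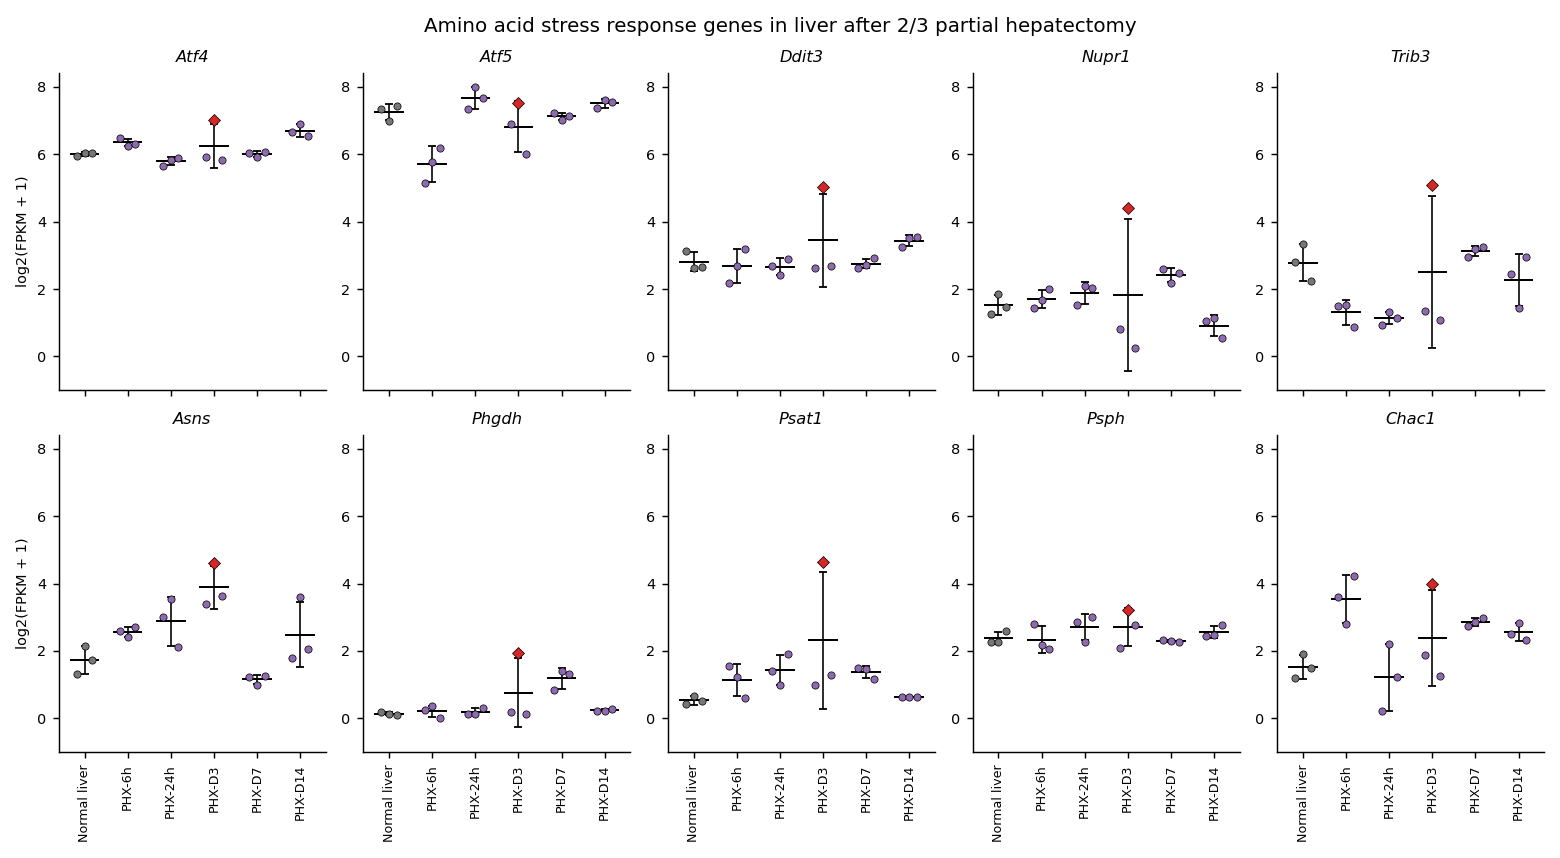
Level of each of the 10 genes as log2(FPKM + 1) in Normal liver and at 5 times after PHX, with 1 point per sample, a line for the mean of 3 samples and bars for the SD. PHX-D3 replicate 2, drawn as a red diamond, is the high sample for Ddit3, Nupr1, Trib3, Psat1 and Chac1, while Chac1 is higher and Atf5 lower at 6 h than in Normal liver.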

How the data were processed

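RNA sequencing values of 60 samples were used, from 33 cell samples, 18 livers and 9 cultures or hepatocytes of the day 7 table. The authors deposited 1 value per gene and sample, taken here as FPKM, a unit inferred from the values. The submitters' processing notes name TopHat 1.4.1, Cufflinks 1.3.0 and the build mm10. Reads recovered from steps in the values (tolerance 0.05 reads) lay between 49.3 M and 88.8 M (M, mega) for cells and between 46.8 M and 73.9 M for livers. Depth was not recovered for day 7, whose table was used in part (480 rows, 1 cut off).

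Genes were tested where 3 or more samples reached 1 FPKM (12328, 11114 and 276 genes). log2(FPKM + 1) was fitted per table, all groups together, with limma 3.58.1 in R 4.3.3 and a trend in the prior variance, and p-values were adjusted by Benjamini-Hochberg. Genes counted as changed had an adjusted p under 0.05 and at least 2-fold. On simulated data with a log2 change of 1.5, 200 of 200 changed genes were found for the cell table, 179 of 200 for the liver table and 50 of 50 for day 7. The genes, lists and comparisons were chosen with earlier results of these data known. Named are the 10 genes, a set part of each pathway list, and the 5 genes most like Asns by Pearson r over group means. The design foresaw Nupr1 alone at day 7, and counts over the 9 genes there, results without clone-1 and results without PHX-D3 replicate 2 were added after the data were seen. Replicate numbers did not pair samples (mean r of deviations -0.015 over 165 cell pairs, -0.030 over 45 liver pairs and -0.079 over 9 at day 7). Also tried were quantile normalization, a pseudocount of 0.1, a filter of 5 FPKM or none, a replicate block, voom on recovered reads, no fold threshold and leaving out each replicate. Python 3.11.15, numpy 2.4.6, pandas 2.3.3 and matplotlib 3.10.9 were used.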

Additional observations from a re-analysis of the deposited data

Results flagged for a closer look

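In mouse-1, the change from IL6-iHPCs to IL6-iMHs differed between P35 and P10 for 5 of the 10 genes, by a test of the difference itself on the log2(FPKM + 1) scale with limma. The differences were 3.67 for Chac1, 3.66 for Nupr1, 2.40 for Trib3, 1.54 for Atf5 and 2.16 for Asns, on which the set was chosen. Chac1 and Nupr1 fell at P10 and rose at P35, and Asns and Trib3 fell at P10 and stood 0.60 and 0.64 higher at P35. Each passage is 1 line with 3 samples, so the difference holds for these samples only. No group had enough samples for a test of single outlying samples.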

How the results depend on the processing

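Counts here are over every gene tested, so those against uncultured cells or Normal liver include Nupr1, Phgdh and Chac1 where tested. Over 21 results (the counts of the genes called in each comparison and Nupr1 at day 7), 291 of 316 alternatives kept the result. A count was kept when its size stayed close, whatever the direction of its genes, so a count could not reverse. Maturation over the 4 lines was kept under quantile normalization, although it went from 0 higher and 2 lower to 1 higher and 1 lower. Nupr1 at day 7 kept direction and threshold throughout. Under quantile normalization, maturation called 5 genes in mouse-1 at P35, 3 in mouse-2 and 1 in clone-1, and day 7 after PHX called 0. The count there was also 0 with a filter of 5 FPKM, under which Phgdh was not tested. With no fold threshold, 8 genes were called in IL6-iMHs against Hepatocytes, 6 at D14 against D3, 10 in maturation over the 4 lines, 10 each in mouse-1 at P10 and P35, 8 in clone-1, 9 in mouse-2, 8 for P35 against P10 maturation and 1 on day 14 after PHX. Leaving out 1 replicate gave 1 to 2 genes in mouse-2, 0 to 2 on day 3 after PHX, 0 to 1 on day 7 and 0 to 2 on day 3 against 24 h. Of the latter, Atf5 passed without 24 h replicate 1 (-1.03) and Chac1 without day 3 replicate 3 (1.72).

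For single genes, 3 values reversed: Psph under quantile normalization at D3 (-0.021) and D14 (-0.076), and Nupr1 on day 3 after PHX without replicate 2 (-1.02, against up to 1.07 without other samples). Of 2842 alternatives for single genes, 2744 stayed on the same side of the threshold, 16 were no longer past it and 78 newly past it. Values that were under 2-fold and changed sign under quantile normalization included Atf4 for P35 against P10 (-0.33), Nupr1 in clone-1 (0.10) and Atf5 for IL6-iHPCs-D7 against Primary hepatocytes (-0.41). Over its 12 alternatives, Nupr1 at day 7 ranged from 1.72 to 1.90 against HCM-Hepa-D7 and from 3.57 to 7.06 against Primary hepatocytes. With the replicate block, the count at D3 against Hepatocytes was 6 and no call changed. Quantile normalization moved the share of calls that were higher from 76.1% to 54.0% in IL6-iMHs against Hepatocytes and from 29.3% to 52.9% at 6 h after PHX. The number of all genes called was 4020 in IL6-iMHs against Hepatocytes and 6479 with voom on recovered reads, 1254 at D14 against D3 and 2363 with voom or 2147 with a pseudocount of 0.1, and 3459 in maturation over the 4 lines and 5432 with voom or 2281 under quantile normalization. For maturation, voom called 4860 against 3082 in mouse-1 at P10 and 4362 against 2907 in clone-1. In the liver, voom and the pseudocount of 0.1 called 3065 and 2921 against 1810 at 6 h, 1438 and 1412 against 878 at 24 h, 1083 and 1069 against 647 on day 3, 1516 and 1519 against 982 on day 7 (625 with a filter of 5 FPKM), 753 and 777 against 331 on day 14, 1431 and 1472 against 747 between 6 h and 24 h, and 807 and 769 against 413 between 24 h and day 3. Without PHX-D3 replicate 3, 1030 were called on day 3, and without replicate 2, 636 between 24 h and day 3. The causes were not tested.

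Depth limits the lowest levels, with 1 Nupr1 read over all Hepatocytes samples and 31 Phgdh reads over all Normal liver samples. Depth and counting error at day 7 are unknown.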

Other observations

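Some genes of the pathway lists counted above had further values, which are given here singly. In the passaged IL6-iHPCs, the amino acid carrier Slc7a5 stood 4.95 above Hepatocytes on the log2(FPKM + 1) scale and the synthetase Gars 3.80, while Gdf15, a stress hormone, fell by 1.01. Gdf15 in the liver reached 34.5 to 89.2 FPKM at 6 h, 109 to 118 on day 7 and 3.67 to 208 on day 14 after PHX, against 4.64 to 11.9 in Normal liver. Atf3 was at 62.6 to 70.8 FPKM on day 7 and at 47.6 to 121 FPKM on day 14, against 0.517 to 1.05 FPKM in Normal liver.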
